A study of Mus musculus with 2 samples.

Results

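The levels of 34 genes of glycolysis and of the response to low oxygen were measured cell by cell in primary tumours and lymph nodes of mice. The members were taken by symbol from a list made with earlier results of these data known, and all 34 were found among the 22620 genes of both libraries. They comprised 4 transporters, 17 enzymes, 3 regulators and 10 genes of oxygen sensing and its targets. Both libraries came from the same 6 C57BL/6J mice with EO771-HEVM3 tumours, 1 library from the pooled primary tumours and 1 from the pooled paired lymph nodes. EO771 is a line of mouse breast cancer, from which HEVM3 was derived by selection in mice over 3 rounds for passage to the lung through the high endothelial venules of lymph nodes, so the cancer cells at both sites come from 1 selected line. Tumours were digested for 2 h with collagenases I and III and hyaluronidase, and lymph nodes for 1 h with collagenase P, dispase and DNase, so tissue site and digestion cannot be told apart. The study also sorted endothelial cells from lymph nodes, and the labels do not say whether such cells are in the lymph node library. Cells cannot be traced to single mice. Each group was thus 1 library, so differences could not be set against the spread between replicates and were not tested. Levels are counts of UMIs (unique molecular identifiers, each standing for a captured 3′ transcript end) per 1000000 UMIs (CPM), summed over the cells of a class. Bracketed 95% intervals are exact Poisson intervals for CPM, exact Clopper-Pearson intervals for shares, and exact intervals for the split of 2 counts for log2 ratios. They cover counting error only.

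Glycolysis splits glucose into pyruvate, which lactate dehydrogenase turns into lactate when it does not enter the mitochondria. When oxygen is low, the prolyl hydroxylases of the Egln family no longer mark the alpha subunit of hypoxia-inducible factor (HIF) for destruction, and HIF then activates genes for glucose uptake, for most steps of glycolysis and for adaptation to low oxygen, Egln genes among them. Tumours are known for high glycolysis, with or without oxygen. HIF binds DNA at a short core that reads ACGTG or GCGTG.

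To show where this core lies near members whose levels are compared below, 5 promoters are printed. Each is the 250 bases before the RefSeq transcription start (GRCm38.p6), 5′ to 3′ on the strand of the gene. Capitals mark each match to ACGTG or GCGTG on either strand, and overlapping matches were counted as 1 site. Pgk1, Ldha, Gapdh and Pgam1 encode enzymes whose levels were higher in lymph node than in primary tumour cancer cells, and Hif1a, whose level was lower, is shown beside them. The windows lie at chrX:106186850-106187099 (Pgk1, plus strand), chr7:46845554-46845803 (Ldha, plus), chr6:125165774-125166023 (Gapdh, minus), chr19:41911621-41911870 (Pgam1, plus) and chr12:73907617-73907866 (Hif1a, plus). None of these 5 windows overlaps an exon of the GENCODE annotation.
Pgk1: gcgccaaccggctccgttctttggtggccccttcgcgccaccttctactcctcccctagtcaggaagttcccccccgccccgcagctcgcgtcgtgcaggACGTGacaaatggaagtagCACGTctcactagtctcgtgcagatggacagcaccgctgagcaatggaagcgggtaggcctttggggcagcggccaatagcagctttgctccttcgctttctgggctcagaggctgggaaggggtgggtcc
Ldha: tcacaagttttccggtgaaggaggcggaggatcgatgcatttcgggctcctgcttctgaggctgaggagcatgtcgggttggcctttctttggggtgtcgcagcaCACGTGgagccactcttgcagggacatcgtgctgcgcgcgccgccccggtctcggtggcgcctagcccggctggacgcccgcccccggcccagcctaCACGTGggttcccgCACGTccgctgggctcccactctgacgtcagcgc
Gapdh: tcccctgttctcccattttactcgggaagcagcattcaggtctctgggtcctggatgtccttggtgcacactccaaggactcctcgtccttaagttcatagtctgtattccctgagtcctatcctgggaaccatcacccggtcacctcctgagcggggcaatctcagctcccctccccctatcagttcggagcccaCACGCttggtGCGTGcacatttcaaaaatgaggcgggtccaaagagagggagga
Pgam1: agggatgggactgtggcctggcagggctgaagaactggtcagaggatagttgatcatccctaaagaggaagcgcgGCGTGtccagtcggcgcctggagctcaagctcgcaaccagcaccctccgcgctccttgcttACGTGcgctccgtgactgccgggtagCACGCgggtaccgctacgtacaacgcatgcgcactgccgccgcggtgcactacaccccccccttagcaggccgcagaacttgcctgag
Hif1a: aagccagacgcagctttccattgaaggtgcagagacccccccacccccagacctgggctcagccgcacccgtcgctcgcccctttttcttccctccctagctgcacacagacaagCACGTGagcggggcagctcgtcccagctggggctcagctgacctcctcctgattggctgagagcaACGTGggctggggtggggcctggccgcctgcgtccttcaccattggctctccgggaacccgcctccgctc

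Promoter windows were matched for 32 of the 34 members, those of Slc2a3 and Ndrg1 being missing, and 26 of the 32 (81.2%) held at least 1 site. Over all 27025 genes with a window the share was 38.6%. ACGTG was found in 53.1% of member windows and 16.6% of all, and GCGTG in 53.1% and 28.2%. The palindrome CACGTG, which holds ACGTG on both strands and is also the E box of other factors, was found in 15.6% of member windows and 6.05% of all. Pgk1 had 2 sites, at 150 and 131 bases before its start. Ldha had 3 sites, of which those at 145 and 48 bases before its start were CACGTG. The windows of Hk1, Gpi1, Aldoa, Tpi1, Eno2 and Pkm held no match. Of their 250 bases, 167 in Gpi1, 193 in Aldoa, 138 in Tpi1, 61 in Eno2 and 208 in Pkm overlapped exons of the GENCODE annotation. Some windows with a site, those of Pfkfb3, Pfkfb4 and Aldoc among them, overlapped exons too. Only the first listed window of each member was used. Further windows were listed for Hk1, Aldoa and Pkm, and also for Ldha, Eno1, Pfkm, Aldoc, Pdk1 and Pfkfb3, whose first window held a site. A match describes the letters of the window and is no measure of binding.

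After limits on detected genes and mitochondrial UMIs and removal of likely doublets, 8756 of 12427 primary tumour cells and 9689 of 11617 lymph node cells were kept. The median kept cell had 9383 UMIs in the primary tumour library and 2324 in that of the lymph node. Cell classes were rebuilt from marker genes, so that cancer cells stands for cancer-like clusters, and likewise for the other names. Cancer cells made up 69.9% [68.9 to 70.9] of kept primary tumour cells (6122 cells) and 6.30% [5.82 to 6.80] of kept lymph node cells (610 cells). With no upper limit on detected genes in place of 6000, the cells classed as cancer cells numbered 6752 and 1324, over 2-fold more in the lymph node. The median depths with the limit were 14066 and 35058.5 UMIs. The 12 epithelial markers that name them summed to 5512 CPM in primary tumour cells and 6971 CPM in lymph node cells, and each was detected at both sites. The 119 markers of other classes summed to 2685 and 2404 CPM in these cells, with 7 and 20 of them at 0. In all, 47 barcodes occurred in both libraries, 19 of them among primary tumour and 5 among lymph node cancer cells. Leaving these cells out moved no list median or count given for cancer cells beyond its limits. Levels are given for the 19 combinations of class and site with at least 20 cells.

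Lymph node cancer cells gave a larger share of their UMIs to glycolytic enzymes than primary tumour cancer cells. The 17 enzymes together took 1.37% of UMIs in the lymph node and 0.673% in the primary tumour. The median log2 ratio of lymph node over primary tumour was 1.01 over the enzymes and 0.69 over all 34 members, against −0.19 over all 10742 genes that reached 100 UMIs in at least 1 of the libraries. Relative to that all-gene median the values were 1.20 and 0.87. Of the 29 members with at least 100 UMIs, 10 were at least 2-fold higher in the lymph node, 3 at least 2-fold lower and 16 in between. Over all such genes 4.61% were at least 2-fold higher and 9.40% at least 2-fold lower. The members with at least 10000 UMIs in a library were Gpi1, Aldoa, Tpi1, Gapdh, Pgk1, Pgam1, Eno1, Pkm, Ldha, Hif1a and Ndrg1. Among these, 6 were at least 2-fold higher and 1 (Ndrg1) lower, against 2.34% and 6.55% of all such genes. The enzymes made up 8 of the 10 higher members and none of the 3 lower ones. The difference rested in large part on cluster 23, which held 512 of the 610 lymph node cells and 1 primary tumour cell. Without it the median was 0.22 over the enzymes and 0.06 over all members, against −0.34 over all genes. At least 2-fold higher were then 2 members, beside 2.69% of all genes.

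**Figure D1:**
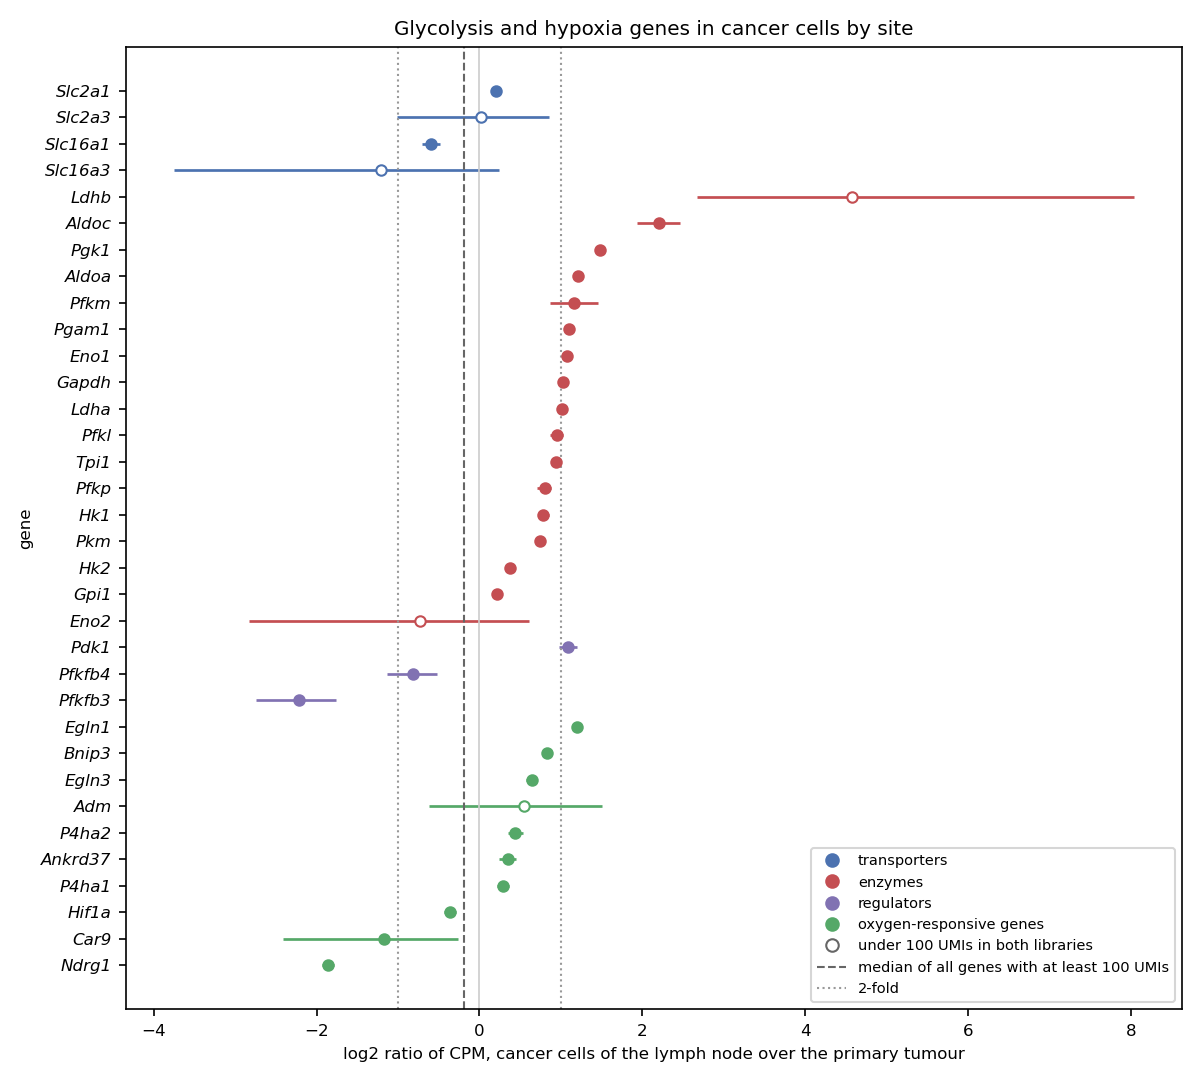
Log2 ratio of lymph node over primary tumour CPM in cancer cells for each of the 34 members, grouped by role, with bars for the 95% counting interval and a line at the median of all genes tested (−0.19). Most enzymes lie right of that line, Pgk1 at 1.48 and Aldoa at 1.21 among them, while Ndrg1 (−1.86) and Pfkfb3 (−2.22) lie farthest left.

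The transporters did not share this difference. Slc2a1, the widespread glucose transporter, stood at 111 CPM [106 to 115] in cancer cells of the lymph node and at 96.0 CPM [94.1 to 98.0] in those of the primary tumour, which gave a log2 ratio of 0.20 [0.14 to 0.27]. Slc16a1, which moves lactate and pyruvate across the cell membrane, was at 34.2 CPM in the lymph node and 51.5 CPM in the primary tumour (log2 ratio −0.59 [−0.71 to −0.48]). Both stayed within 2-fold. Slc2a3, a glucose transporter of high affinity, had 13 UMIs in lymph node and 63 in primary tumour cancer cells. Slc16a3, the lactate exporter of strongly glycolytic cells, had 3 and 38 UMIs. The cancer cells of both sites thus held almost no RNA of either gene.

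Among the enzymes of the first steps the ratios were modest. Hk1 and Hk2, the hexokinases that trap glucose in the cell, had log2 ratios of 0.78 [0.72 to 0.85] and 0.38 [0.31 to 0.44]. Gpi1, the isomerase of the next step, was at 317 CPM in the lymph node and 272 CPM in the primary tumour (log2 ratio 0.22). Of the phosphofructokinases, which commit sugar to the pathway, Pfkl had a log2 ratio of 0.95 and Pfkp of 0.80. Pfkm, the muscle form, was higher at 1.16 [0.87 to 1.45] but rested on 147 and 313 UMIs. All 6 genes were higher in the lymph node, and of these Pfkm alone passed 2-fold.

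From the aldolase step onward the enzymes were mostly near or above 2-fold. Aldoa, the aldolase of most tissues (chr7:126795234-126800751), reached 1805 CPM [1787 to 1824] in cancer cells of the lymph node and 781 CPM [776 to 787] in those of the primary tumour, giving a log2 ratio of 1.21 [1.19 to 1.23]. Gapdh, the dehydrogenase that feeds electrons to NAD (chr6:125161715-125166467), was at 5238 CPM [5207 to 5269] and 2577 CPM [2567 to 2588], a log2 ratio of 1.02 [1.01 to 1.03]. Pgk1, the kinase of the first ATP-forming step (chrX:106187100-106203699), was at 1168 CPM [1153 to 1183] and 420 CPM [416 to 424], a log2 ratio of 1.48 [1.45 to 1.50]. Pgk1 thus stood 2.78-fold higher in the lymph node, the highest ratio among the members with over 10000 UMIs. Pgam1, the mutase, and Eno1, the main enolase, had log2 ratios of 1.10 and 1.08. Ldha, the lactate dehydrogenase subunit that favours lactate formation, was at 1566 CPM [1549 to 1584] and 776 CPM [770 to 781] (log2 ratio 1.01). Tpi1, the triose isomerase, and Pkm, the pyruvate kinase, lay below 2-fold at 0.94 and 0.74. Aldoc, the aldolase of brain, was low at 12.0 and 2.61 CPM but had a log2 ratio of 2.20 [1.94 to 2.46]. Eno2, the enolase of neurons, had 4 and 35 UMIs. Ldhb, the subunit that favours pyruvate formation, had 12 UMIs in 610 lymph node cells and 2 in 6122 primary tumour cells (log2 ratio 4.57 [2.67 to 8.04]). Eno1b, a near-identical copy of Eno1, was counted apart at 10.3 and 7.67 CPM, and how the counting by the authors split reads between them is not stated.

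The regulators moved in different directions. Pdk1, the kinase that keeps pyruvate out of the mitochondria, reached 46.6 CPM [43.7 to 49.7] in cancer cells of the lymph node and 21.9 CPM [21.0 to 22.9] in those of the primary tumour (log2 ratio 1.09). Pfkfb3, which makes the sugar phosphate that drives phosphofructokinase (chr2:11471433-11554077), was at 1.81 CPM [1.28 to 2.50] and 8.54 CPM [7.97 to 9.14], or 4.65-fold lower in the lymph node. Its relative Pfkfb4 was at 4.75 and 8.41 CPM (log2 ratio −0.82 [−1.14 to −0.52]). Lymph node cancer cells had the lowest Pfkfb3 level of all 19 combinations.

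The genes of oxygen sensing and the HIF targets outside the pathway were more mixed than the enzymes. Their median log2 ratio was 0.39, against −0.19 over all genes, and 7 of the 10 were above 0. The interval lay above that all-gene median for 6 of them and below it for 3. Of the 9 with at least 100 UMIs 1 was at least 2-fold higher and 2 at least 2-fold lower, beside 4.61% and 9.40% of all genes. Hif1a, the alpha subunit itself, stood at 80.7 CPM [76.9 to 84.7] in cancer cells of the lymph node and at 104 CPM [102 to 106] in those of the primary tumour (log2 ratio −0.36). Egln1, the main HIF prolyl hydroxylase (chr8:124908587-124949324), was at 229 CPM [222 to 235] and 99.5 CPM [97.5 to 101], a log2 ratio of 1.20 [1.15 to 1.25]. Egln3, a hydroxylase induced by HIF, had a log2 ratio of 0.64, and Bnip3, which promotes removal of mitochondria, of 0.83. Ndrg1, a stress-responsive gene that HIF induces (chr15:66929318-66969640), was at 79.3 CPM [75.4 to 83.2] and 288 CPM [284 to 291], or 3.63-fold lower in the lymph node. The collagen prolyl hydroxylases P4ha1 and P4ha2 had log2 ratios of 0.29 and 0.44, and Ankrd37, a small HIF target, of 0.35. Car9, the carbonic anhydrase of hypoxic tumours, had 9 and 101 UMIs, and Adm, the vasoactive peptide adrenomedullin, had 11 and 37. Egln1 and Ndrg1, both HIF targets, thus differed between sites in opposite directions.

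Depth differed between the cancer cells of the 2 sites, so cells were also compared within a window of depth. Among cells of 10000 to 30000 UMIs (178 in the lymph node with a median of 24477.5 UMIs, 3458 in the primary tumour with a median of 17579.5 UMIs) the median Pgk1 level per cell was 839 CPM in the lymph node and 377 CPM in the primary tumour. For Gapdh the medians were 4616 and 2317 CPM, and for Egln1 192 and 83.3 CPM. Ndrg1 had medians of 73.4 and 131 CPM, and its 90th percentiles were 285 and 861 CPM. In this window the median log2 ratio of the enzymes was 0.86, against −0.16 over all genes. At least 2-fold higher were 4 members, beside 3.53% of all genes. Across depth classes of primary tumour cancer cells the enzymes took 0.618 to 0.746% of UMIs, and in lymph node classes with cells of at least 10000 UMIs 1.04 to 1.42%, with no overlap. The oxygen genes took from 0.136% in primary tumour cells under 5000 UMIs to 0.0598% in those of 30000 to 40000 UMIs. Compared with lymph node cells they went both ways, at 0.0714% in the lymph node against 0.0975% in the primary tumour for 10000 to 20000 UMIs, and 0.0944% against 0.0669% for 20000 to 30000 UMIs.

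The cancer cells fell into 6 clusters, and in the primary tumour Ndrg1, Bnip3 and Ankrd37 varied most among these of the members above the count floor. Cluster 0 (1493 primary tumour cells) was led by the cell cycle genes Cenpf and Ube2c, cluster 1 (320 cells) by Cyp1a1 and Sprr1a, cluster 2 (841 cells, the shallowest) and cluster 3 (2251 cells) by genes including Elf3, and cluster 4 (1216 cells) by genes including Tff1. Ndrg1 ran from 38.2 CPM in cluster 1 to 531 CPM in cluster 3, a 13.9-fold range. Bnip3 ran from 14.4 CPM in cluster 0 to 196 CPM in cluster 3 (13.7-fold) and Ankrd37 from 4.71 to 65.1 CPM (13.8-fold). Clusters 0 and 1 were low in all 3 genes, and clusters 2, 3 and 4 were high. Among the enzymes Aldoc had an 11.5-fold range, Aldoa 2.82-fold, Pgk1 2.02-fold, Ldha 1.51-fold and Gapdh 1.35-fold. Slc2a1 had a 4.43-fold range. Other oxygen genes varied less, with ranges of 2.71-fold for P4ha1, 2.09-fold for P4ha2, 1.62-fold for Egln3 and 1.57-fold for Egln1. Pfkfb3 had the reverse order, with its highest level in cluster 1 (12.8 CPM) and its lowest in cluster 2 (1.92 CPM). Slc16a1, Pgam1, Eno1 and Pfkm had their highest levels in the cycling cluster 0, each with an interval that overlapped that of cluster 4. Since clusters were built from these same cells, their differences are a description.

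**Figure D2:**
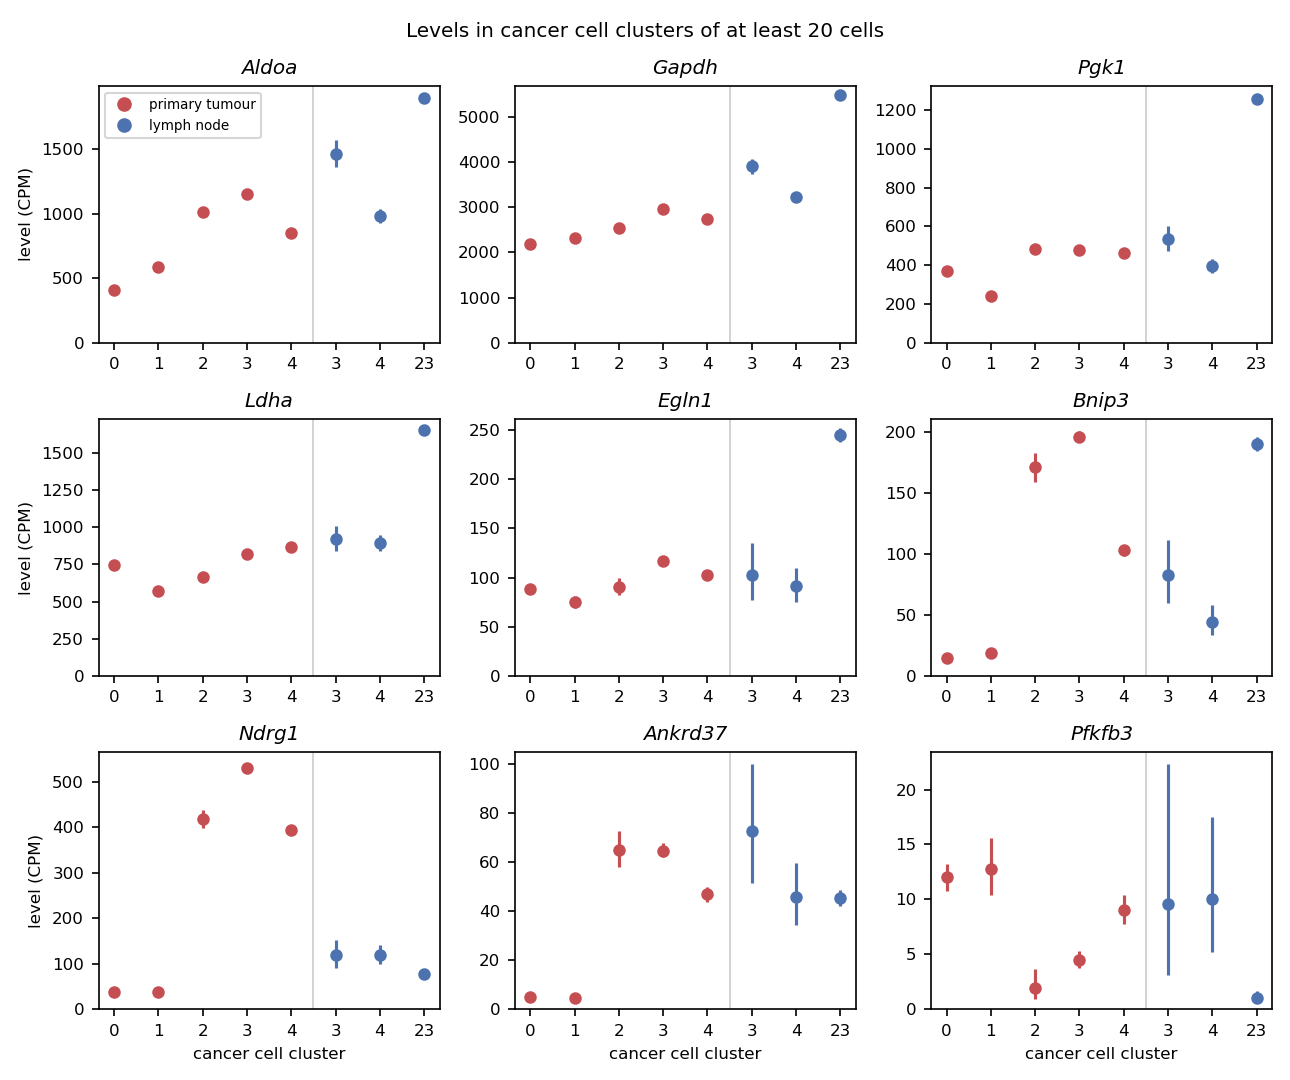
CPM of 9 members (vertical axes, each from 0) in the cancer clusters with at least 20 cells, red for primary tumour and blue for lymph node, with bars for the 95% Poisson interval. In the primary tumour Ndrg1 spans 38.2 to 531 CPM and Gapdh 2192 to 2955 CPM, and lymph node cluster 23 has the highest Pgk1 level (1256 CPM).

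In the lymph node the enzyme sum was highest in cluster 23, led by Tff2, Krt19 and Id1, at 14329 CPM. The lymph node cells of clusters 3 and 4 (26 and 50 cells) had 9822 and 8269 CPM. Primary tumour cells of these 2 clusters had 7797 and 7405 CPM. The Pgk1 level of cluster 23 was 1256 CPM, while the lymph node cells of clusters 3 and 4 had 534 and 394 CPM. Primary tumour cells of clusters 3 and 4 had 479 and 461 CPM, so that Pgk1 was at a like level at both sites there. Ldha was at 1652 CPM in cluster 23 and at 919 and 894 CPM in lymph node clusters 3 and 4, against 818 and 865 CPM in the primary tumour. Other enzymes went both ways in clusters 3 and 4. Eno1 (log2 ratios 0.77 and 0.54), Pgam1 (0.71 and 0.26) and Gapdh (0.40 and 0.24) were higher in the lymph node. Gpi1 (−0.04 and −0.22) and Pfkp (−0.35 and −0.35) were lower. Egln1 was at 245 CPM in cluster 23 and at 103 and 91.6 CPM in lymph node clusters 3 and 4. Ndrg1 was at 76.8, 119 and 119 CPM in the lymph node clusters, below the 531 and 393 CPM of primary tumour clusters 3 and 4 and above the 38.3 and 38.2 CPM of primary tumour clusters 0 and 1. Pfkfb3 was at 1.04 CPM in cluster 23 and at 9.57 and 9.99 CPM in the other 2 lymph node clusters. Over clusters 3 and 4 alone, weighted equally, the median log2 ratio was 0.17 for the enzymes and −0.55 for the oxygen genes, against −0.09 over all genes. Of the members with at least 100 UMIs none was at least 2-fold higher, beside 2.71% of all genes. At least 2-fold lower were 2 of them, Ndrg1 (−1.93) and Bnip3 (−1.22), beside 6.79% of all genes. Pgk1, Pfkm, Pfkp, Pdk1, Egln1, Egln3, Bnip3, P4ha1, P4ha2, Slc2a1 and Gpi1, higher over all cancer cells, and Pfkfb3 and Car9, lower over all, each had a ratio of the other sign in clusters 3 and 4 and when cluster 23 was left out. Cluster and site cannot be told apart for cluster 23, which had 1 primary tumour cell.

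Other values differed between the cancer cells of the sites beside the members. The 10 dissociation and stress genes examined summed to 3080 CPM in primary tumour and 1176 CPM in lymph node cancer cells, and 5 of the 10, Fos and Fosb among them, were at least 2-fold lower in the lymph node, 1 was higher (Hspa1a, 2.55) and 4 lay within 2-fold, beside 9.40% lower and 4.61% higher of all genes. By cluster this sum was 917 CPM in cluster 23, 797 and 1020 CPM in primary tumour clusters 0 and 1, and 2971 to 5644 CPM in the other clusters shown. The 14 proliferation genes summed to 1449 CPM in the lymph node and 1341 CPM in the primary tumour, with none past 2-fold. Median mitochondrial shares were 2.83% and 2.88%. The part of stress, digestion and depth in the ratios was not tested.

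Other genes of the pathways were taken from lists, and their counts past 2-fold, where given, are set against the 4.61% of all genes that were higher and the 9.40% that were lower. Of 23 further hypoxia-response genes, 19 had at least 100 UMIs, of which 12 had a log2 ratio above 0 in cancer cells and 7 below, with a median of 0.27. Of 11 genes of the HIF machinery 9 could be compared, with Epas1, the alpha subunit of the related factor HIF-2, lower at 8.62 against 33.8 CPM (−1.97), none higher and a median of −0.11. Of 19 other glycolysis genes 7 could be compared (median 0.52). All 19 summed to 1501 CPM in the lymph node and 742 CPM in the primary tumour, a 2.02-fold ratio, of which Bsg alone made up 1085 and 539 CPM. Eno3, the muscle enolase (1.34), and Bsg, the partner protein of lactate transporters (1.01), were higher, and Pfkfb2 (−1.32) and Tigar (−1.41), a phosphatase that opposes glycolysis, were lower. None of the 8 pentose phosphate genes passed 2-fold (median −0.03). Of 22 genes of pyruvate use and the citric acid cycle Pdk4, another kinase that holds pyruvate back, was lower (−2.35), and their median was −0.21.

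Across all classes, lymph node cancer cells held the highest enzyme sum, at 13660 CPM [13609 to 13711]. Lymph node endothelial cells followed with 9415 CPM [9317 to 9513], then primary tumour macrophages with 7735 CPM [7627 to 7844] and primary tumour cancer cells with 6734 CPM [6718 to 6751]. Plasma cells (1806 CPM [1733 to 1882]), plasmacytoid dendritic cells (2033 CPM [1881 to 2193]) and B cells (2092 CPM [2064 to 2121]) of the lymph node had the lowest sums, with intervals that overlapped between neighbours in this order. The oxygen genes had another order. Their sum was highest in primary tumour fibroblasts (1397 CPM [1344 to 1452]) and lay between 1025 and 1182 CPM in primary tumour macrophages, endothelial cells, monocytes, neutrophils and dendritic cells, above both sets of cancer cells (834 and 896 CPM). Single genes made up much of some of these sums. Hif1a gave 772 of 1160 CPM in monocytes and 515 of 1182 CPM in macrophages, and Ndrg1 577 of 1025 CPM in dendritic cells. In the primary tumour, cancer cells were thus not the class richest in either list.

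**Figure D3:**
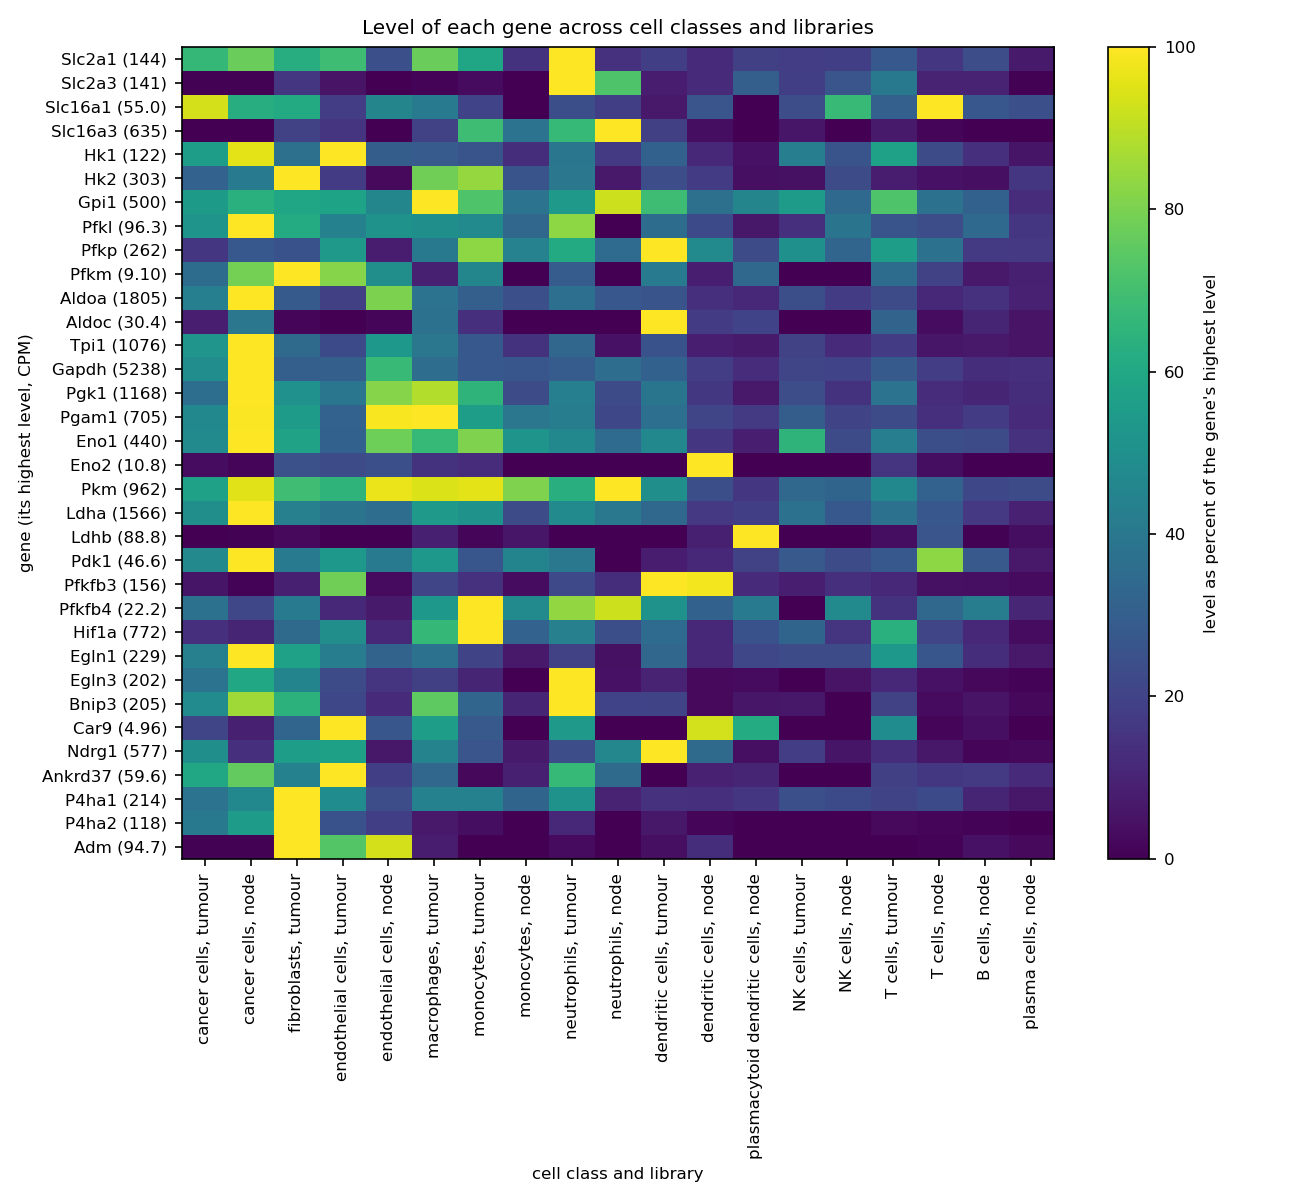
CPM of the 34 members in the 19 combinations of class and site with at least 20 cells. Lymph node cancer cells hold the highest level for 9 members, Gapdh (5238 CPM) and Ldha (1566 CPM) among them, while Slc16a3 peaks in neutrophils and monocytes and Hif1a in primary tumour monocytes (772 CPM).

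Of the 34 members, 9 were highest in lymph node cancer cells, and most of the others were highest in another class of the primary tumour. For 8 of the 9 (Aldoa, Tpi1, Gapdh, Pgk1, Eno1, Ldha, Pdk1 and Egln1) the interval did not overlap that of the next combination, and for Pfkl it did. Slc16a3 was highest in lymph node neutrophils (635 CPM [487 to 814]), followed by primary tumour monocytes (438 CPM [391 to 489]) and neutrophils (426 CPM [363 to 497]), all 3 with overlapping intervals. After thinning to 1000 UMIs per cell, 45.1% of lymph node neutrophils (64.1% unthinned) and 32.5% of primary tumour monocytes (48.4%) had a Slc16a3 UMI. Primary tumour cancer cells, at 0.0618% (0.588%), gave the background, and median depths were 1985, 1910 and 14066 UMIs. Thinning left out 6 of 39 lymph node neutrophils, 41 of 351 monocytes and 81 of 6122 cancer cells. Slc2a3 was likewise highest in neutrophils, at 141 CPM [106 to 185] in the primary tumour and 102 CPM [49.1 to 188] in the lymph node. Both transporters that were almost absent from cancer cells thus had their highest levels in neutrophils.

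The remaining peaks were spread over stromal and immune classes. Hk2 (303 CPM [278 to 329]), P4ha1 (214 CPM [193 to 236]), P4ha2 (118 CPM [103 to 134]) and Adm (94.7 CPM [81.3 to 110]) were highest in fibroblasts, with the interval of Hk2 overlapping that of primary tumour monocytes (255 CPM [219 to 295]). Adm was also found at 88.7 CPM in lymph node endothelial cells and at 69.5 CPM in those of the primary tumour, with overlapping intervals, and at or below 12.3 CPM in every other class. Hif1a was highest in primary tumour monocytes (772 CPM [709 to 838]) and then macrophages (515 CPM), far above cancer cells at both sites. Ndrg1 (577 CPM [489 to 676]), Pfkp (262 CPM [204 to 331]) and Pfkfb3 (156 CPM [112 to 211]) were highest in primary tumour dendritic cells, with the interval of Pfkp overlapping that of primary tumour monocytes (217 CPM [185 to 254]). Dendritic cells of the lymph node had as much Pfkfb3 (153 CPM [133 to 176]) and less Ndrg1 (200 CPM [176 to 226]). Ldhb was highest in plasmacytoid dendritic cells (88.8 CPM [59.5 to 127]) and next in lymph node T cells (23.4 CPM). Gpi1 was highest in macrophages (500 CPM [473 to 529]), overlapping lymph node neutrophils (461 CPM [336 to 617]), and Pgam1 was at 705 CPM there and 702 CPM in lymph node cancer cells, which did not differ beyond their intervals. Egln3 (202 CPM [159 to 253]) and Bnip3 (205 CPM [162 to 256]) were highest in primary tumour neutrophils, the latter with an interval that overlapped that of lymph node cancer cells (176 CPM [170 to 181]). In that class the epithelial markers stood at 42.6% of their level in cancer cells, in fibroblasts at 23.2%, in endothelial cells at 19.4% and in the other primary tumour classes at or below 8.24%, whereas in lymph node classes they stood at 0.966 to 4.10%. The part of RNA from cancer cells in these levels was not tested. Slc16a3, Slc2a3 and Adm, at or below 0.648 CPM in cancer cells, were far higher in the classes named than in cancer cells themselves.

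Over all T cells the difference between sites had the opposite sign. Of the 25 members with at least 100 UMIs, 3 were at least 2-fold higher in lymph node T cells and 9 lower. Over all 7253 such genes the shares were 5.96% and 19.8%, with a median log2 ratio of −0.33. The median of all 34 members was −0.96. Pgk1 stood at 150 CPM in T cells of the lymph node and at 445 CPM in those of the primary tumour (log2 ratio −1.57 [−1.70 to −1.43]), Aldoa at 200 and 412 CPM (−1.05 [−1.18 to −0.91]) and Hif1a at 160 and 490 CPM (−1.61 [−1.74 to −1.48]). Slc16a1 (1.67), Ldhb (2.70) and Pdk1 (1.54) were higher in the lymph node. The T cells of the sites were largely different cells. Cluster 5, led by Cd8a, Cxcr6, Pdcd1 and Gzmb, held 522 of the 580 primary tumour T cells and 23 of the 3690 lymph node ones. Within it Gapdh had a log2 ratio of 0.78 [0.55 to 1.00], Aldoa one of 0.71 [0.25 to 1.13] and Pgk1 one of −0.02 [−0.63 to 0.50]. The median of the members there was 0.08, with 16 below 0 and several on few UMIs. In cluster 10, led by Tnfrsf4, Ctla4 and Foxp3 (45 primary tumour and 533 lymph node cells), Gapdh had a log2 ratio of −0.22 [−0.41 to −0.02]. Aldoa had one of −0.74 [−1.11 to −0.31], and Pgk1 was at 251 and 839 CPM (−1.75 [−2.06 to −1.41]). The median of the members in cluster 10 was −1.19, with 31 below 0. Epithelial markers stood in primary tumour T cells at 8.24% of their level in cancer cells, and their part in the ratios was not tested.

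In endothelial cells 6 of the 11 enzymes with at least 100 UMIs were at least 2-fold higher in the lymph node and 1 was lower, while 3 of the 6 such oxygen genes were lower and 3 lay within 2-fold. These cells also came from different clusters, with 51 primary tumour cells in cluster 11, led by Fabp4 and Gpihbp1, and 189 of the 191 lymph node cells in cluster 25, led by Glycam1 and Fut7, genes of high endothelial cells. Of all 18 members with at least 100 UMIs, 6 were higher and 5 lower. Over all 4607 such genes the shares were 23.5% and 14.7% for higher and lower genes. Aldoa stood at 1452 CPM in endothelial cells of the lymph node and at 340 CPM in those of the primary tumour (log2 ratio 2.09 [1.85 to 2.35]). Tpi1, Gapdh, Pgk1, Pgam1 and Eno1 had ratios of 1.06 to 1.64. Ldha did not share this, at 557 and 605 CPM (−0.12 [−0.31 to 0.08]). Hif1a was at 86.0 and 380 CPM (−2.14 [−2.42 to −1.85]) and Ndrg1 at 38.1 and 328 CPM (−3.10 [−3.45 to −2.75]). Slc16a3 had 1 UMI in the lymph node and 39 in the primary tumour, and Pfkfb3 17 and 49 UMIs. Epithelial markers stood at 19.4% of their cancer cell level in primary tumour and 2.17% in lymph node endothelial cells, and their part in the ratios was not tested.

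**Figure D4:**
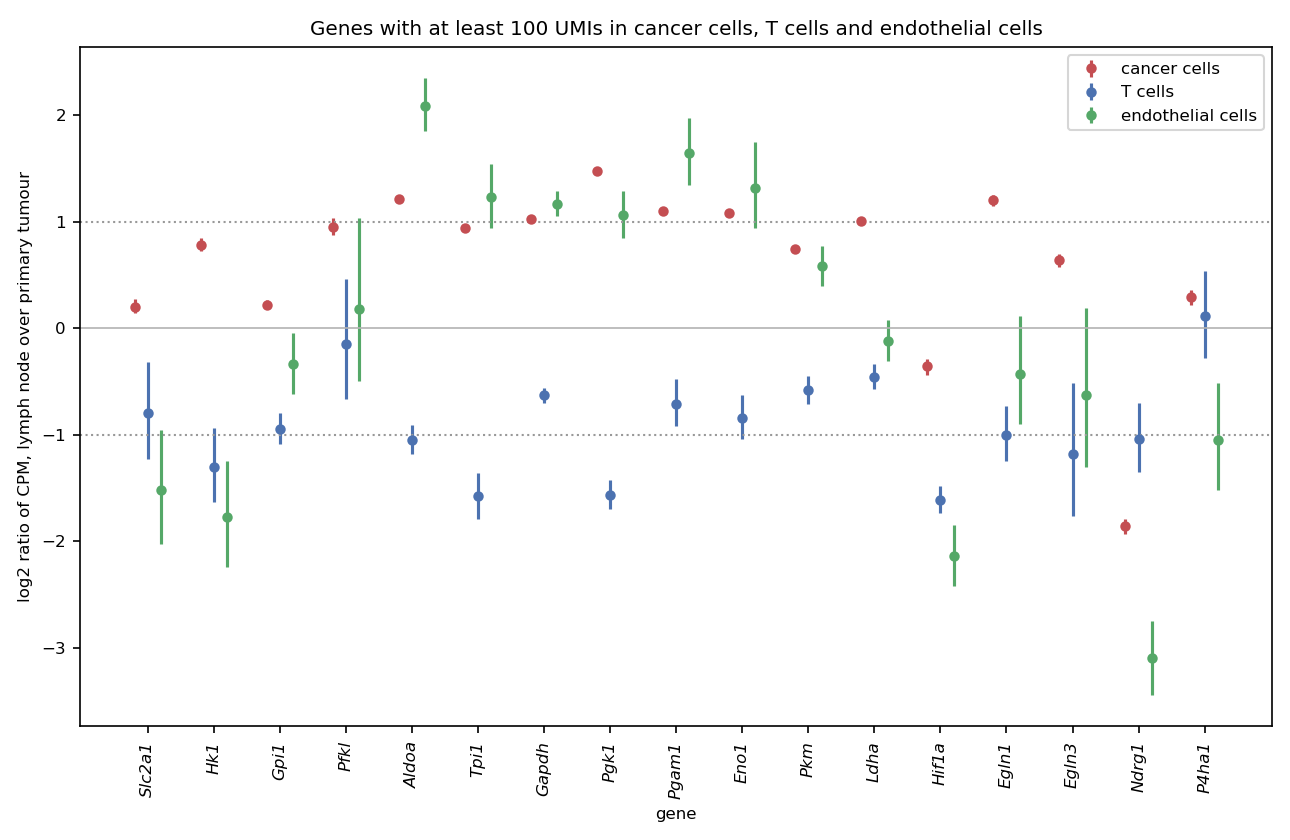
Log2 ratio of lymph node over primary tumour CPM in cancer cells, T cells and endothelial cells, for the 17 members with at least 100 UMIs in all 3 classes, with 95% counting intervals. Pgk1 is at 1.48, −1.57 and 1.06 and Ndrg1 is below 0 in each class (−1.86, −1.04 and −3.10).

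Gene pairs that encode forms of the same protein were used in different proportions by class. Among hexokinase UMIs, Hk2 made up 51.5% [50.1 to 52.9] in lymph node and 58.5% [57.7 to 59.2] in primary tumour cancer cells. Its share was 87.1% in fibroblasts and macrophages and 88.9% in primary tumour monocytes, against 17.1% [11.7 to 23.7] in lymph node endothelial cells. Among phosphofructokinase UMIs, Pfkp made up 41.0% and 43.8% in the cancer cells of lymph node and primary tumour and over 80% in T cells of both sites (80.1% and 83.9%). In endothelial cells the Pfkp share was 28.6% [23.4 to 34.3] in the lymph node and 74.0% [62.8 to 83.4] in the primary tumour. Slc16a3 made up 1.04% [0.0264 to 5.67] of the UMIs of the pair with Slc16a1 in lymph node endothelial cells and 90.7% [77.9 to 97.4] in primary tumour ones. In T cells its share was 18.3% [15.8 to 21.1] and 73.4% [62.3 to 82.7]. Egln1 made up 65.6% [64.4 to 66.7] of Egln1 and Egln3 UMIs in lymph node and 56.3% [55.5 to 57.0] in primary tumour cancer cells, and Egln3 made up 81.7% in primary tumour neutrophils. Ldhb made up 23.6% of lactate dehydrogenase UMIs in plasmacytoid dendritic cells and 5.19% in lymph node T cells, but 0.0375% and 0.00265% in the cancer cells.

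**Figure D5:**
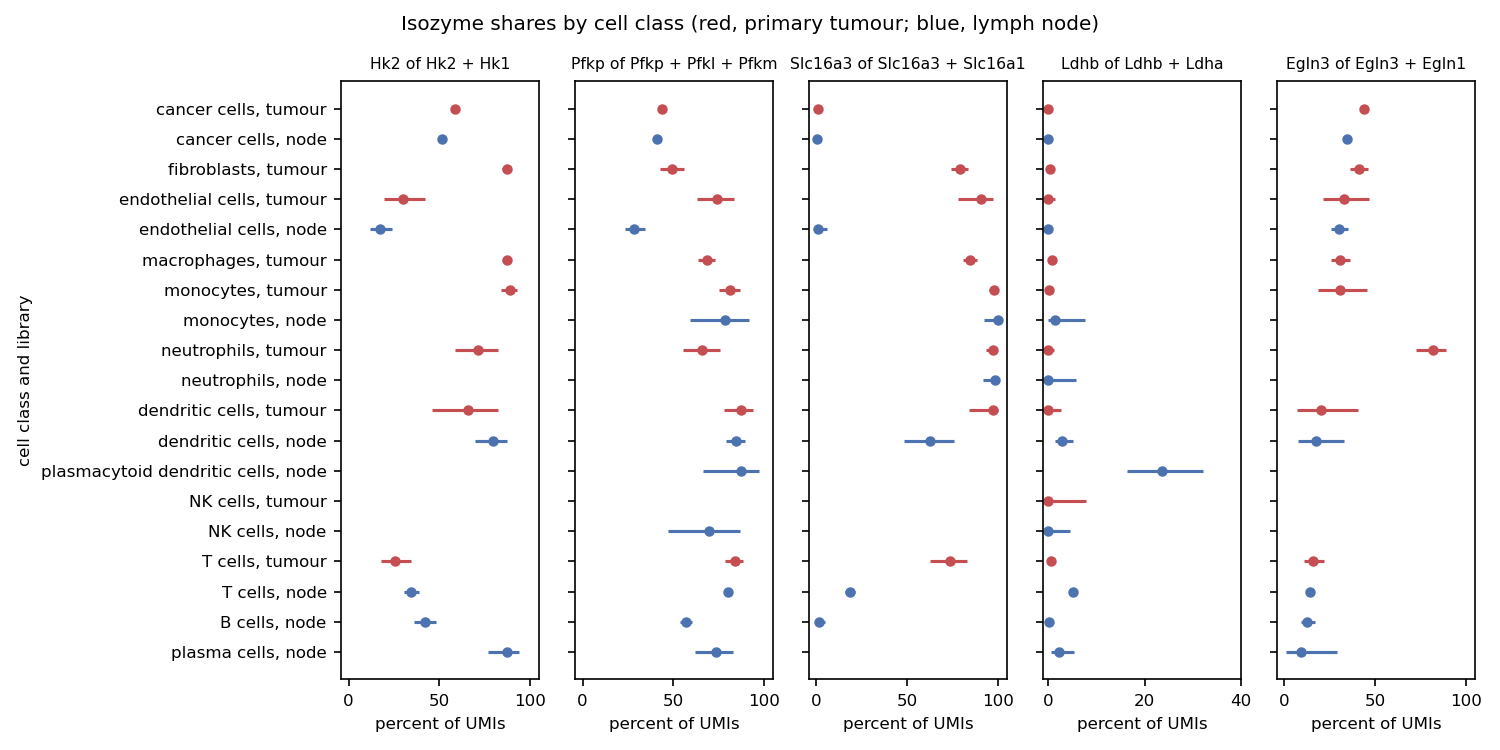
Share of Hk2, Pfkp, Slc16a3, Ldhb and Egln3 in the UMIs of their groups of related genes, by class, with 95% counting intervals, red for primary tumour and blue for lymph node, shown where the group had at least 20 UMIs. Slc16a3 goes from 1.04% of its pair in lymph node endothelial cells to 90.7% in primary tumour ones, while in cancer cells it is below 1% at both sites.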

How the data were processed

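Single cells were captured with a droplet 3′ kit in 1 primary tumour and 1 lymph node library. The deposited matrices hold raw UMI counts, which the authors made against GRCm38 with Cell Ranger, as version 2.1.1 per the submitters' processing notes and as version 5.0.0 per the file headers. No rows named anything other than a gene. Aldoa had 2 rows, and the one with nearly all UMIs was used.

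Kept cells had 201 to 6000 detected genes and mitochondrial UMIs of no more than 5%. Doublets were scored with Scrublet (scanpy 1.11.5), which marked 391 primary tumour cells. Its threshold marked 0 in the lymph node, where the 616 cells with the top 6% of scores were taken out. After scaling each cell to 10000 counts, taking logs and regressing out cell cycle scores from the lists in Seurat 5.3.0, both libraries were clustered together on 2000 variable genes per library, 30 components and 15 neighbours (Leiden, resolution 1.0, igraph 0.11.9, seed 1). DoubletFinder, Harmony and inferCNV, used in the study, were not used here. Clusters were named from marker lists by a scoring rule set after the data were seen, and 472 primary tumour and 68 lymph node cells stayed unnamed.

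Counts were summed per class and library, and 0.5 count was added for log2 ratios. With 1 library per group the comparisons are descriptions: a gene was counted as higher or lower past 2-fold with at least 100 UMIs in either library. All 34 members are named, and of other lists up to 3 genes each way past 2-fold, with the counts and genes past 2-fold of the hypoxia-response list not reported here. The members and lists were chosen with earlier results of these data known. Ratios and intervals were tested on simulated data. The alternatives were other limits on cells, doublets kept, other clustering, keratin UMIs in place of clusters, mean single-cell CPM, depth windows, other scalings, other added counts and other minimum counts, with 4 added after the data were seen. Other software was matplotlib 3.10.9, pandas 2.3.3, scipy 1.17.1, numpy 2.4.6 and python 3.11.15.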

Additional observations from a re-analysis of the deposited data

Results flagged for a closer look

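Aldoa and Pgk1 differed between sites in opposite directions in 2 classes. The log2 ratio of lymph node over primary tumour for Aldoa was −1.05 in T cells and 1.21 in cancer cells. For Pgk1 it was −1.57 in T cells and 1.48 in cancer cells. With 1 library per site, the difference between the classes was not tested, and for both classes different clusters held most cells of each site. Within T cell cluster 5 Aldoa was at 0.71 [0.25 to 1.13] and Pgk1 at −0.02 [−0.63 to 0.50]. Within T cell cluster 10 they were at −0.74 [−1.11 to −0.31] and −1.75 [−2.06 to −1.41].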

How the results depend on the processing

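No paired analysis was possible because each group was 1 library. The median log2 ratios of the 34 members, the 17 enzymes and the 10 oxygen genes (0.69, 1.01 and 0.39) and the counts past 2-fold among members with at least 100 UMIs (10 higher, 3 lower) changed most with the cancer clusters used. In clusters 3 and 4 alone (76 lymph node and 3467 primary tumour cells) they were 0.08, 0.17 and −0.55, with 0 members higher and 2 lower. Without cluster 23 (98 lymph node cells), an alternative added after seeing the data, they were 0.06, 0.22 and −0.67, with 2 higher and 1 lower. The median over all genes was then −0.34. Ratios of the other sign in these 2 settings were −0.20 and −0.95 for Pfkm, −0.03 and −0.07 for Pgk1, −0.07 and −0.15 for Pdk1, 0.72 and 0.05 for Pfkfb3, −0.16 and −0.22 for Egln1, and 1.03 and 1.33 for Car9, all past 2-fold before. Members within 2-fold before also changed sign in both settings, to −1.22 and −0.96 for Bnip3, −0.51 and −0.73 for Egln3, −0.73 and −0.60 for P4ha1, −0.70 and −0.71 for P4ha2, −0.35 and −0.26 for Pfkp, −0.59 and −0.13 for Slc2a1, and −0.13 and −0.15 for Gpi1. Ndrg1 kept its direction in all 19 alternatives (−2.11 to −1.17). Mean single-cell CPM gave 0.57 for the members, 0.09 for the oxygen genes and 6 higher, beside 5.50% of all genes. In cells of 10000 to 30000 UMIs the enzymes were at 0.86 with 4 higher, beside 3.53% of all genes. With the limit on detected genes also lifted (added after seeing the data) they were at 0.86 with 5 higher, beside 3.30% of all genes. Lifting that limit alone gave 1.11 for the enzymes. Centring on the all-gene median gave 0.87, 1.20 and 0.58. Counting genes with at least 10000 UMIs (added after seeing the data) left 6 higher and 1 lower, where 2.34% and 6.55% of all genes passed. Why these values moved was not tested. Counted over all alternatives, 83 values of the summaries stayed within their limits and 22 moved. For ratios of single members 482 stayed, 152 moved and 12 reversed, the last being those of Pfkm, Pgk1, Pdk1, Pfkfb3, Egln1 and Car9 given above. For levels in the classes 155 values stayed and 42 moved, and for shares of gene pairs 116 stayed and 4 moved. The enzyme median in T cells (−0.84) lay between −1.07 and −0.83, with 85 to 606 primary tumour T cells, and in endothelial cells (−0.12) between −0.15 and 0.39. Clustering each library on its own named no primary tumour T cells and resolution 0.5 no primary tumour endothelial cells, so these gave no value. Low counts limit Slc2a3, Slc16a3, Eno2, Ldhb, Adm and Car9 in cancer cells.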
